A study of Mus musculus with 4 samples.

Results

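The Toll-like receptor genes of the mouse were examined in alveolar macrophages, which live in the air spaces and clear inhaled material, from mice with and without a Cre designed to delete Pparg. Of 10 receptor genes listed (Tlr1 to Tlr9 and Tlr13), 9 had a probe set annotated with that symbol alone, each with 1 such probe set, among 18782 genes in all. Tlr5 is not analysed here. Members were taken by symbol. The mice were adult, on a C57BL/6 background, and all of them carried floxed Pparg alleles (PPARg fl/fl). KO mice also carried CD11c-Cre, a Cre under control of the CD11c promoter, which is active in alveolar macrophages and also in dendritic cells. WT mice lacked the Cre. Each genotype had 2 arrays, and each array held RNA of sorted cells pooled from 2 mice. Both sorts took live CD45+, CD11c high, autofluorescent, Siglec-F+ cells, but WT cells were taken as CD11b low and KO cells as CD11b high, and the labels describe the WT cells as mature and the KO cells as immature and arrested. The effects of the genotype, of the CD11b gate and of the maturation state cannot be told apart with these arrays. Values are log2 expression after RMA, a method that corrects background, gives all arrays the same distribution and combines the probes of a probe set.

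Toll-like receptors recognise molecules of microbes and of damaged cells and start inflammatory gene expression. Tlr2, which pairs with Tlr1 or Tlr6 to bind bacterial lipoproteins, and Tlr4, which binds lipopolysaccharide, signal at the cell surface, as does the flagellin receptor Tlr5. Tlr3, Tlr7, Tlr8, Tlr9 and Tlr13 sense nucleic acids inside endosomes. All of them but Tlr3 use the adaptor Myd88, Tlr3 uses Ticam1 (TRIF), and Tlr4 uses both. Alveolar macrophages meet inhaled particles and surfactant all the time and are known for restrained responses to many such signals.

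The receptor genes did not move as a block. Tlr9 rose in KO macrophages to 3.69 times its WT level, Tlr3 and Tlr13 rose to 1.81 and 1.73 times, and Tlr1 rose to 1.43 times at a signal near the bottom of the scale. Tlr8 fell to 0.705 times its WT level. Tlr2, Tlr4, Tlr6 and Tlr7 were not past the test. So 4 of 9 measured receptor genes were higher and 1 was lower in KO (limma, adjusted p under 0.05 over all 18782 genes), where 7.41% of all genes were higher and 6.86% lower. With genes below the median of all probe sets left out, 1442 of 10052 genes were higher and 1494 lower. In that setting 3 of 8 receptor genes were higher and 1 was lower. The shares over all genes, here and beside the lists below, include dim genes and are smaller than in that setting. The median difference of the 9 genes was 0.36 on the log2 scale, against -0.01 over all genes. Of the 5 endosomal receptors, 3 rose, 1 fell and 1 did not pass, with a median difference of 0.79. Among the 4 measured surface receptors 1 rose and 3 did not pass, with a median of 0.04. Whether the endosomal and the surface receptors differ was not tested. The KO arrays lay wholly above the WT arrays for 6 of the 9 genes and wholly below them for 3 (25.3% and 30.0% of all genes), with a gap of only 0.01 for Tlr4 and 0.02 for Tlr6. Separation in either direction held for 55.3% of all genes and is therefore common in these data. The number of higher receptor genes was 2 without KO replicate 1, and the lower count was 0 when any 1 array was left out.

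**Figure D1:**
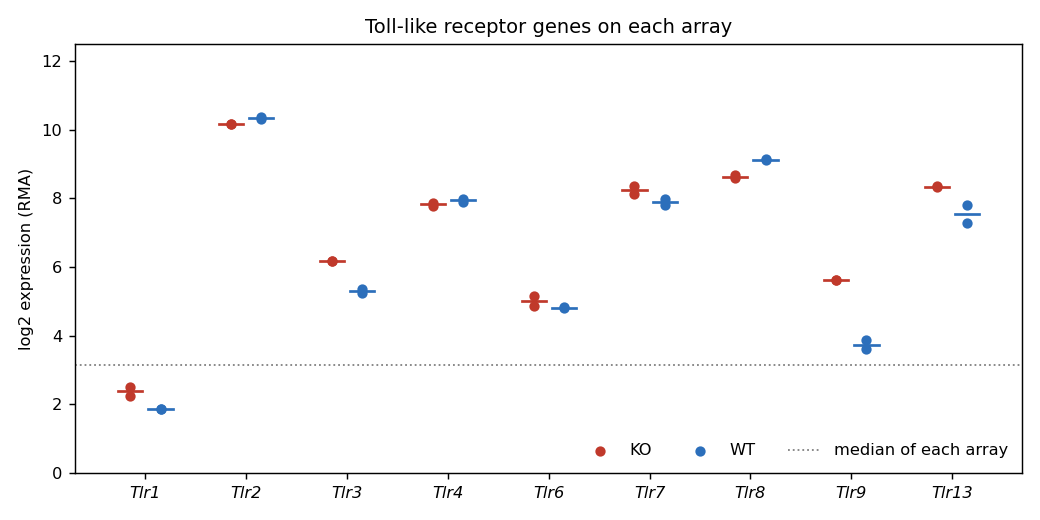
Log2 expression after RMA (vertical axis) of the 9 measured Toll-like receptor genes, KO in red at the left of each pair and WT in blue at the right. Points are arrays (n = 2 per genotype), short lines are group means and the dotted line is the median of each array, 3.14. Tlr9 shows the widest gap between the groups (1.74), and Tlr1 lies under the dotted line on every array.

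Tlr9, the endosomal receptor for unmethylated CpG DNA, had log2 levels of 5.63 and 5.61 on the KO arrays, against 3.87 and 3.60 on the WT arrays. The KO arrays almost coincided, and the lower of them stood 1.74 above the higher WT array. The difference was 1.88 ± 0.12 (SE; 95% interval 1.59 to 2.18; limma adjusted p = 0.000336), and it ranked 245 by size among the 1391 genes higher in KO. It passed the test without any 1 array, with differences between 1.75 and 2.02, and it was the only receptor gene whose difference also passed a test against 0.5 on the log2 scale. The WT level lay close to the array median of 3.14, where RMA values are compressed. The genes whose pattern over the 4 arrays lay nearest to that of Tlr9, by Euclidean distance after centring each gene, were Mreg (distance 0.107 log2 units), Pde7b (0.108) and Slc25a23 (0.125). Their KO minus WT differences were 1.91, 1.99 and 1.86, and shared regulation was not tested. The WT values of Pde7b (2.49 and 2.27) and Slc25a23 (2.90 and 2.74) lay under the array median.

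Tlr3, the endosomal receptor for double-stranded RNA, measured 6.17 on each KO array, against 5.25 and 5.37 on the WT arrays. The groups were well apart, with a gap of 0.79. The difference was 0.86 ± 0.10 (SE; 95% interval 0.62 to 1.10; limma adjusted p = 0.00289), and it passed the test without any 1 array, with differences of 0.80 to 0.92.

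Tlr13, an endosomal receptor of mice for bacterial ribosomal RNA, measured 8.33 and 8.36 on the KO arrays, against 7.81 and 7.29 on the WT arrays. Both KO arrays lay above both WT arrays, but the WT arrays were themselves far apart (mean 7.55 ± 0.36, SD, n = 2). The difference was 0.79 ± 0.17 (SE; 95% interval 0.37 to 1.22; limma adjusted p = 0.0304). The call was lost without KO replicate 1 (adjusted p = 0.136) and without KO replicate 2 (adjusted p = 0.148), and the difference measured 0.54 without WT replicate 2 and 1.05 without WT replicate 1.

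Tlr8 and Tlr7 are neighbouring genes on the X chromosome whose proteins sense RNA and its breakdown products in endosomes. Tlr8 measured 8.59 and 8.67 on the KO arrays, against 9.14 and 9.12 on the WT arrays. The groups were separated by 0.45, and the difference was -0.50 ± 0.10 (SE; 95% interval -0.74 to -0.27; limma adjusted p = 0.0192). Its size changed little when any 1 array was left out (-0.55 to -0.46), while the adjusted p was then between 0.0601 and 0.107, so the call needs all 4 arrays. Tlr7 measured 8.14 and 8.37 on the KO arrays, against 7.99 and 7.80 on the WT arrays. Its KO arrays were the higher ones, by a gap of 0.16. The difference of 0.36 ± 0.12 (SE; 95% interval 0.06 to 0.66) was not past the test over all genes (limma adjusted p = 0.12), though it was with an intensity trend in the variance model (adjusted p = 0.0437). The signs of the neighbours were thus opposite, with a test passed for Tlr8 alone. The gene of Tlr13 also lies on the X chromosome. The X-inactivation transcript Xist read between 1.48 and 1.65 and the Y-linked gene Eif2s3y between 7.44 and 7.62 on the 4 arrays, so the X-linked receptors were compared between pools alike in these genes.

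Among the surface receptors, Tlr2 measured 10.16 and 10.18 on the KO arrays, against 10.31 and 10.38 on the WT arrays. The KO arrays were slightly lower, and the difference of -0.18 ± 0.10 (SE; 95% interval -0.41 to 0.06) was not past the test (limma adjusted p = 0.32; 0.0429 with an intensity trend). The gene lay near the top of the scale, where a signal can saturate, which was not tested here. Tlr4 measured 7.88 and 7.79 on the KO arrays, against 7.89 and 7.98 on the WT arrays. The groups all but touched, and the difference was -0.10 ± 0.10 (SE; 95% interval -0.34 to 0.15; limma adjusted p = 0.623). A change of Tlr4 as large as that of Tlr3 lies outside this interval.

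The partners of Tlr2 had lower signals. Tlr6, which joins Tlr2 for diacylated lipoproteins, measured 5.15 and 4.85 on the KO arrays, against 4.83 and 4.80 on the WT arrays. KO replicate 2 was nearly level with the WT arrays, and the difference of 0.18 ± 0.13 (SE; 95% interval -0.12 to 0.49) was not past the test (limma adjusted p = 0.437). Tlr1, the partner for triacylated lipoproteins, measured 2.51 and 2.25 on the KO arrays, against 1.87 and 1.85 on the WT arrays. All 4 values lay under the array median of 3.14, so a change is reported at a level where the array holds little signal. Its difference of 0.52 ± 0.12 (SE; 95% interval 0.23 to 0.81; limma adjusted p = 0.0353) lost its call without KO replicate 1 (adjusted p = 0.153), WT replicate 1 (0.106) or WT replicate 2 (0.103). Tlr1 and Tlr6 are close relatives in sequence, and whether probes of one bind transcripts of the other cannot be told from values per probe set. Tlr11 and Tlr12, the mouse receptors for profilin of protozoa, are no members of the list and were dim as well. Tlr11 differed by 0.17 ± 0.13 and Tlr12 by 0.14 ± 0.10 (SE; limma adjusted p = 0.511 and 0.469).

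**Figure D2:**
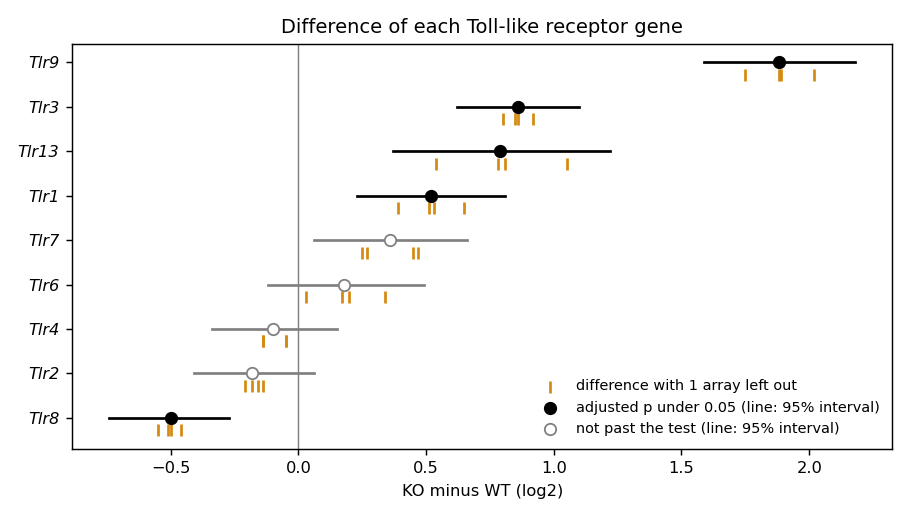
KO minus WT difference on the log2 scale (horizontal axis) of the 9 measured Toll-like receptor genes, ordered by size. Circles are the differences over 2 KO and 2 WT arrays, filled where the adjusted p was under 0.05, lines are 95% intervals of the limma model, and orange ticks are the differences with 1 array left out. Tlr9 stands apart at 1.88, Tlr8 is the lowest at -0.50, and the ticks of Tlr13 spread from 0.54 to 1.05.

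Promoter windows of 250 bases before to 50 bases after a transcript start were taken from RefSeq (GRCm38.p6) and were found for 8 of the 10 listed genes, Tlr4 and Tlr7 being those without one. They are shown for Tlr9, Tlr3 and Tlr13, which rose by the most, and for Tlr8, which fell. The windows are chr9:106222348-106222647, plus strand (Tlr9), chr8:45410331-45410630, minus strand (Tlr3), chrX:106143025-106143324, plus strand (Tlr13) and chrX:167264280-167264579, minus strand (Tlr8), each written along the strand of the gene. Capitals mark matches on either strand to the core motifs of the myeloid factor PU.1 (GAGGAA), of interferon regulatory factors (AANNGAAA), of AP-1 (TGANTCA) and to the half-site of nuclear receptors (AGGTCA), as well as matches to the canonical NF-kB motif. The direct repeat bound by PPAR and RXR, made of that half-site repeated with 1 base between, was searched too and contains the half-site. None of the matches in these 4 windows overlap each other, apart from the AP-1 motif, which reads the same on both strands.
Tlr9: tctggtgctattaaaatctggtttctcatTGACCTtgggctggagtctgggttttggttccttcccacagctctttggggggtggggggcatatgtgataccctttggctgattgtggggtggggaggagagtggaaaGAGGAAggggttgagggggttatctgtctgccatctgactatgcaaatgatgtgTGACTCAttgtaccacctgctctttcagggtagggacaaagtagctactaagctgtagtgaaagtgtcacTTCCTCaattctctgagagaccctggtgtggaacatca
Tlr3: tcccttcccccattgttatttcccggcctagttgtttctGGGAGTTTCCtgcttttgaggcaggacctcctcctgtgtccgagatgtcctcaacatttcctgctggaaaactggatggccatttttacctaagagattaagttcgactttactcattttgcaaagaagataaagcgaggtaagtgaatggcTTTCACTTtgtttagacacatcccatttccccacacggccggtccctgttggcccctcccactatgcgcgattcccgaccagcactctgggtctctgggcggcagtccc
Tlr13: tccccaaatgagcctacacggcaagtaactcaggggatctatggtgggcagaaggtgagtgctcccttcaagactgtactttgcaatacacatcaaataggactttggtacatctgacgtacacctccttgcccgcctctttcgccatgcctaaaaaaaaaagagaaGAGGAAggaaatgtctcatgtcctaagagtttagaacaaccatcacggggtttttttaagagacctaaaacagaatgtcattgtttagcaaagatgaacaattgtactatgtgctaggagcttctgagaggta
Tlr8: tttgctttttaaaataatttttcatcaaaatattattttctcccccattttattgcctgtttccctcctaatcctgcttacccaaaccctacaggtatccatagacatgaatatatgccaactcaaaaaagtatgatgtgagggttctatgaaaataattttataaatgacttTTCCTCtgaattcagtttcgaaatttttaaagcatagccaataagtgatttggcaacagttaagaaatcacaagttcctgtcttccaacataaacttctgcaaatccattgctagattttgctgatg
The Tlr9 window held a PU.1 core 112 bases before the start and another 12 bases after it, an AP-1 motif 58 bases before it and a nuclear receptor half-site 221 bases before it. The Tlr3 window held the NF-kB motif (GGGAGTTTCC) 211 bases and an interferon regulatory factor core (TTTCACTT on this strand) 59 bases before the start. Tlr13 held a PU.1 core 83 bases before its start, and Tlr8 held one on the opposite strand 77 bases before its start. Of all 32851 windows in the table, 28.3% held the PU.1 core, 23.9% the interferon regulatory factor core, 7.81% the AP-1 motif, 8.46% the NF-kB motif and 16.3% the half-site. The PPAR and RXR repeat was found in 0.0396% of all windows and in 0 of the 10 windows of receptor genes. These matches describe letters in a short window, and binding was not measured.

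Ly96, Ly86 and Cd14, which encode partners of Tlr4 and of its relative Cd180, rose in KO macrophages, while neither Tlr4 nor Cd180 was past the test. Of 6 measured genes of ligand capture and coreceptors, 3 were higher and 0 lower by limma (3 and 1 at an unadjusted p under 0.05). Their median difference was 0.44. Of all 18782 genes 7.41% were higher and 6.86% lower by limma (2375 and 2631 genes at an unadjusted p under 0.05). Ly96 encodes MD-2, the lipopolysaccharide-binding partner of Tlr4, and measured 8.51 and 8.41 on the KO arrays, against 7.13 and 7.21 on the WT arrays. This gap was wide, and the difference was 1.29 ± 0.10 (SE; limma adjusted p = 0.000683). Ly86 encodes MD-1, the partner of the Tlr4-related receptor Cd180, and measured 9.49 and 9.67 on the KO arrays, against 7.51 and 7.79 on the WT arrays (difference 1.93 ± 0.13, SE; limma adjusted p = 0.000426). Cd14, the coreceptor that passes lipopolysaccharide to MD-2, differed by 0.74 ± 0.13 (SE; limma adjusted p = 0.0144; 0.0885 without KO replicate 1 and 0.0817 without KO replicate 2). The genes not past the test were Lbp, which encodes the serum protein that delivers lipopolysaccharide to Cd14 (0.13 ± 0.11), Cd180 (0.09 ± 0.15) and Cd36, a lipid receptor that works with Tlr2 (-0.42 ± 0.12), with limma adjusted p = 0.553, 0.759 and 0.065.

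Genes that chaperone the endosomal receptors or process them and their ligands included 5 of 14 measured genes higher and 1 lower, where 7.41% of all genes were higher and 6.86% lower, and had a median of 0.19. Slc29a3, a nucleoside transporter of lysosomes, was higher by 1.27 ± 0.13 (SE; limma adjusted p = 0.00175). The lysosomal protease genes Lgmn (0.94 ± 0.10), Ctsk (0.83 ± 0.11) and Ctsl (0.76 ± 0.11) were higher as well (SE; limma adjusted p = 0.00229, 0.0049 and 0.00647), and their enzymes have been linked to the cleavage that matures Tlr9. Unc93b1, which carries the endosomal receptors out of the endoplasmic reticulum, was higher by 0.44 ± 0.10 (SE; limma adjusted p = 0.0332), between 0.0785 and 0.152 when any 1 array was left out. Slc15a3, a peptide and histidine transporter of endolysosomes, was lower by -0.53 ± 0.09 (SE; limma adjusted p = 0.0141), a call kept only when WT replicate 2 was the array left out. In this list 3 genes were higher without KO replicate 1.

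Downstream of the receptors, Myd88 fell and Irak2 rose. Of 20 measured genes of adaptors, kinases and ligases, 2 rose, 4 fell and 14 did not pass (7.41% and 6.86% over all genes), with a median of -0.05. The listed genes Irak1, Irak4, Traf3 and Chuk were not analysed. Myd88 measured 8.42 and 8.35 on the KO arrays, against 9.32 and 9.21 on the WT arrays. Its difference was -0.88 ± 0.10 (SE; limma adjusted p = 0.00274), and it passed without any 1 array. The phosphoinositide 3-kinase adaptor gene Pik3ap1 (-1.35 ± 0.13), the kinase gene Map3k8 (-1.03 ± 0.15), whose product drives ERK activation, and Tab3 (-0.70 ± 0.13), a partner of the kinase TAK1, were lower too (SE; limma adjusted p = 0.00131, 0.00633 and 0.0176). Map3k8 lost its call without KO replicate 2 (adjusted p = 0.0552), and Tab3 passed only when WT replicate 2 was the array left out, which left 2 lower genes without KO replicate 2. Irak2, a kinase of the complex that Myd88 assembles, measured 8.88 and 8.93 on the KO arrays, against 7.91 and 7.96 on the WT arrays (difference 0.97 ± 0.10, SE; limma adjusted p = 0.00153). Ikbke, an IKK-related kinase gene, was higher by 1.17 ± 0.13 (SE; limma adjusted p = 0.00278).

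Of 14 measured transcription factor genes of the pathway, 2 rose, 1 fell and 11 did not pass, with a median of 0.13. These counts lie near the shares over all genes (7.41% higher and 6.86% lower). Nfkb1, also listed, was not analysed. Irf5, a factor of Myd88-dependent cytokine induction, was higher by 1.16 ± 0.16 (SE; limma adjusted p = 0.0055), and Relb, a subunit of NF-kB, by 0.80 ± 0.18 (SE; limma adjusted p = 0.03; 0.103 without KO replicate 1 and 0.113 without WT replicate 1). Without KO replicate 2 the adjusted p of Irf5 was 0.05 and not under the threshold. Cebpb was lower by -0.42 ± 0.10 (SE; limma adjusted p = 0.0354), between 0.104 and 0.157 when any 1 array was left out. Each of these calls thus depended on at least 1 array, and 1 gene was higher without KO replicate 1, KO replicate 2 or WT replicate 1.

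Of 16 measured negative regulators, 6 were higher and 1 lower (7.41% and 6.86% over all genes), with a median of 0.14. Nlrc3, an inhibitor of Toll-like receptor and nucleic acid signalling, measured 5.46 and 5.62 on the KO arrays, against 2.74 and 2.80 on the WT arrays (difference 2.77 ± 0.11, SE; limma adjusted p = 5.95e-05). Its WT values lay under the array median of 3.14, where the array holds little signal, so the size of the difference is uncertain. Tnfaip3 (1.23 ± 0.17), which encodes the ubiquitin-editing enzyme A20, Nfkbia (1.09 ± 0.14), which encodes the NF-kB inhibitor, and the inhibitory receptor gene Cd200r1 (0.77 ± 0.09) were higher (SE; limma adjusted p = 0.00604, 0.00382 and 0.00345). Without KO replicate 1 the adjusted p of Tnfaip3 was 0.0557, and 3 genes of the list were higher. Nlrx1, a mitochondrial inhibitor of the pathway, was lower by -1.06 ± 0.10 (SE; limma adjusted p = 0.00131).

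Of 25 genes that Toll-like receptor signals are known to induce, 13 were higher and 0 lower by limma (14 and 0 at an unadjusted p under 0.05). Among all genes 7.41% were higher and 6.86% lower by limma. The median difference was 0.64, the highest of these lists. The 12 genes not past the test were Tnf, Il10, Il12b, Ccl3, Ccl4, Ccl5, Nos2, Ifnb1, Saa3, Lcn2, Cd40 and Csf3. Of these, Nos2, Ifnb1, Saa3, Cd40 and Csf3 lay under the array median of 3.14 on every array. Nfkbiz, an inducible cofactor of NF-kB, measured 8.57 and 8.34 on the KO arrays, against 6.28 and 6.01 on the WT arrays (difference 2.31 ± 0.14, SE; limma adjusted p = 0.000265). The other leading genes were Ptgs2 (4.52 ± 0.30), Cxcl10 (2.34 ± 0.16) and the neutrophil chemokine gene Cxcl1 (3.92 ± 0.30), with limma adjusted p = 0.00039, 0.000392 and 0.000675. Without KO replicate 1, 8 of them were higher. These genes also respond to other cytokines and to tissue handling, and the part of the receptors in their levels was not tested.

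Other innate sensors went both ways, with 3 of 10 measured genes higher and 1 lower (7.41% and 6.86% over all genes) and a median of 0.09. The cytosolic peptidoglycan sensors Nod2 and Nod1 were opposite in sign. Nod2 measured 5.93 and 5.75 on the KO arrays, against 3.91 and 4.53 on the WT arrays (difference 1.62 ± 0.20, SE; limma adjusted p = 0.00405), and Nod1 measured 5.35 and 5.64 on the KO arrays, against 6.84 and 6.76 on the WT arrays (difference -1.30 ± 0.13, SE; limma adjusted p = 0.00148). The lectin receptor gene Clec4e (1.48 ± 0.12) and the inflammasome sensor gene Nlrp3 (0.54 ± 0.10) were higher (SE; limma adjusted p = 0.000924 and 0.0167), Nlrp3 passing only when WT replicate 2 was the array left out. Without WT replicate 2, 3 genes of this list were lower.

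**Figure D3:**
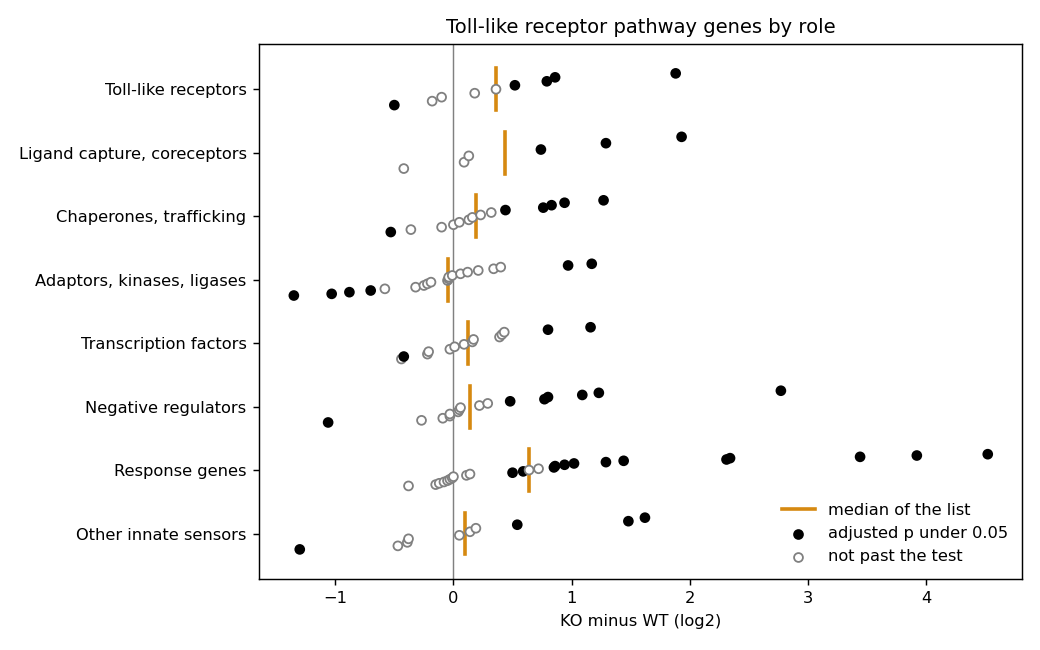
KO minus WT difference on the log2 scale (horizontal axis) of each measured gene of the Toll-like receptor pathway, in rows by role. Each point is a gene over 2 KO and 2 WT arrays, black where the adjusted p was under 0.05, and orange bars are the medians of the lists. The median is highest for the response genes (0.64) and lies at -0.05 for adaptors, kinases and ligases.

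The identity of the sorted cells bears on all of these values. Pparg itself read 9.59 and 9.73 on the KO arrays, against 9.69 and 9.75 on the WT arrays, which does not check the genotype, since the position of its probes against the floxed exons is unknown here. Itgam, which encodes CD11b, differed by 5.76 ± 0.14 as the gates were set, Siglecf by -3.27 ± 0.17, Ptprc (CD45) by -0.52 ± 0.10 and Itgax (CD11c) by 0.24 ± 0.09 (SE; limma adjusted p = 1.25e-05, 0.000164, 0.0212 and 0.168). The Ptprc call was kept only when WT replicate 2 was the array left out. The mean log2 level of 10 alveolar macrophage markers was 6.37 and 6.52 on the KO arrays, against 9.53 and 9.04 on the WT arrays. Of these markers 5 were lower (Siglecf, Fabp1, Cidec, Krt79 and Epcam) and 5 were not past the test, among them Chil3 (0.04 ± 0.10), Plet1 (-0.05 ± 0.09) and Atp6v0d2 (0.00 ± 0.09, SE), with levels of 10.82 to 11.18 on the KO arrays. Car4 (-0.31 ± 0.10) and Marco (-2.62 ± 0.80, SE) were the others. Beside these counts and those that follow, 7.41% of all genes were higher and 6.86% lower by limma. The mean level of 9 interstitial macrophage markers was 5.90 and 5.68 on the KO arrays, against 3.64 and 3.72 on the WT arrays, with 6 of these markers higher, 1 lower (Mrc1, -0.44 ± 0.09, SE; limma adjusted p = 0.0276) and 2 not past the test (Folr2 and Cd163). The Mrc1 and Lyve1 calls were lost when any 1 array was left out (limma adjusted p between 0.0799 and 0.129 for Mrc1 and between 0.108 and 0.205 for Lyve1), and that of Pf4 passed only without KO replicate 2 (0.0188). In pooled cells a change in the share of a cell type and a change of RNA per cell cannot be told apart.

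B cells and plasmacytoid dendritic cells are among the cells that express Tlr9, so markers of both are given beside it. For all counts here, the shares over all genes were 7.41% higher and 6.86% lower by limma. All 5 measured B cell markers were not past the test, and their mean level was 3.12 and 3.04 on the KO arrays, against 3.21 and 3.08 on the WT arrays, close to the array median of 3.14. Siglech, a defining marker of plasmacytoid dendritic cells, read 2.93 and 3.06 on the KO arrays, against 3.01 and 3.06 on the WT arrays. Of 10 dendritic cell markers 1 was higher, Cd209a (2.04 ± 0.19, SE; limma adjusted p = 0.00127), and the mean of the list was 3.40 and 3.66 on the KO arrays, against 3.20 and 3.18 on the WT arrays. Clec9a, a marker of cross-presenting dendritic cells, which express Tlr3 strongly, read 5.79 and 6.99 on the KO arrays, against 4.56 and 5.58 on the WT arrays, and was not past the test (difference 1.32 ± 0.46, SE; limma adjusted p = 0.125). Xcr1, another marker of those cells, read 1.81 and 1.95 on the KO arrays and lay below the array median on the WT arrays too. Of 8 monocyte markers 4 were higher (Ccr2, Ace, F13a1 and Vcan) and 1 lower (Treml4, -2.39 ± 0.31, SE). Their mean level was 6.37 and 6.36 on the KO arrays, against 6.10 and 6.23 on the WT arrays. Of 8 neutrophil markers 2 were higher (Mmp8 and S100a8) and 1 lower (Csf3r, -1.54 ± 0.17, SE). Their mean was 4.64 and 4.50 on the KO arrays, against 3.85 and 4.01 on the WT arrays. Of 7 eosinophil markers 0 were higher (1 at an unadjusted p under 0.05) and 1 was lower by limma, with a mean of 3.20 and 2.84 on the KO arrays, against 3.15 and 3.17 on the WT arrays. Of 8 T and NK cell markers 1 was higher and 0 were lower by limma (1 and 0 at an unadjusted p under 0.05), with a mean of 2.37 and 2.51 on the KO arrays, against 2.27 and 2.31 on the WT arrays. Of 8 epithelial markers 1 was lower, with a mean of 4.20 and 4.18 on the KO arrays, against 4.58 and 4.01 on the WT arrays. The part of the marker lists that moved in the receptor results was not tested.

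**Figure D4:**
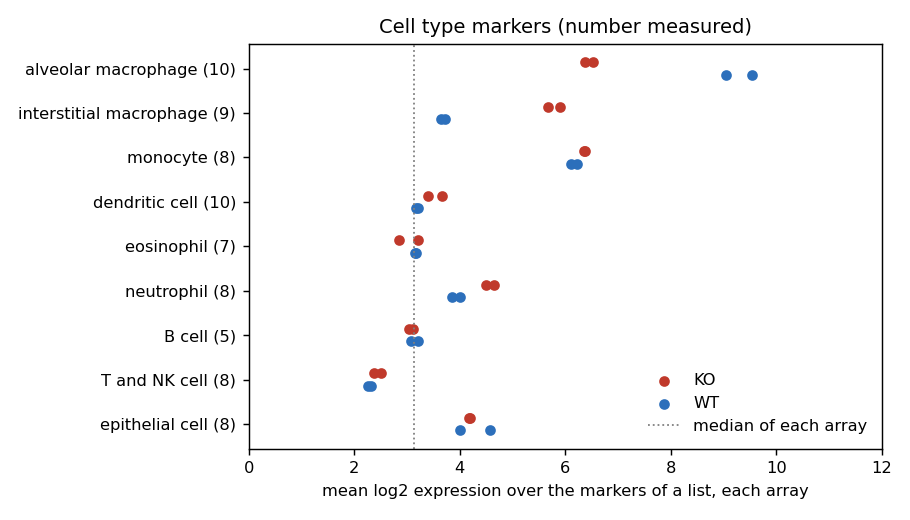
Mean log2 expression over the measured markers of each cell type (horizontal axis), KO arrays in red above WT arrays in blue, with the number of markers in brackets. Each point is 1 array and the dotted line is the median of each array, 3.14. The mean of the alveolar macrophage markers is lower on the KO arrays, with 5 of 10 markers called lower. That of the interstitial macrophage markers is higher, with 6 of 9 called higher and 1 lower. The mean of the B cell markers lies near the dotted line in both groups. Over all genes 7.41% were called higher and 6.86% lower.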

How the data were processed

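RNA of sorted alveolar macrophages was hybridised to 4 Affymetrix arrays (2 KO, 2 WT). The authors deposited log2 values of 28371 probe sets, computed by RMA under R 2.15.2, according to the submitters' processing notes (per the labels). The sources used here give neither its settings nor the genome build. All arrays share 1 distribution with a median of 3.14, so a shift of most transcripts would not be seen, and low values are compressed. Names came from GEO's platform annotation, which lists 1 symbol for 21158 probe sets, more than 1 for 1881 and none for 5332. Of the first, 21128 matched the reference table by Entrez ID. The single-symbol probe set with the highest mean represented each of 18782 genes, and no filter on intensity was used. KO was compared with WT by limma 3.58.1 in R 4.3.3 (group as the only term, empirical Bayes with 4.16 prior and 2 residual degrees of freedom, two-sided, Benjamini-Hochberg over all genes, threshold 0.05). Intervals are at 95%. The procedure was tested on simulated data. Precision is limited by the number of arrays.

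The receptor genes and the pathway and marker lists were chosen with earlier results of these data known. The 8 pathway lists held 118 genes, of which 107 were measured. They were only counted. Named were all receptor genes, all genes past the test in a direction of 5 or fewer, otherwise the 4 with the smallest p, up to 2 where none passed, the gate genes, and the 3 genes nearest in pattern to the called receptor gene with the largest difference. Single markers other than these, and the response genes not past the test, were chosen after their values were seen. Alternatives were other scalings, variance models, probe set choices, an intensity filter, a test against a difference of 0.5, the replicate number as a block and each array left out.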

Additional observations from a re-analysis of the deposited data

How the results depend on the processing

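Of 134 comparisons of a receptor gene with an alternative, 112 kept their direction and their side of the threshold, 20 lost the call, 2 gained one and 0 changed sign. Each measured receptor gene had 1 probe set, so the choice of probe set or a mean of probe sets could not change its difference. Only genes past the test could lose a call, so the total of 112 does not measure how stable the calls are. Tlr9 and Tlr3 kept their calls under every array left out, and Tlr1 could not be tested with dim genes removed. Against the counts of 4 higher and 1 lower receptor gene, fitting all 28371 probe sets gave 2 higher, a test against a difference of 0.5 gave 1 higher and 0 lower (2 and 0 at an unadjusted p under 0.05), an intensity trend gave 2 lower, and leaving out 1 array gave 2 to 3 higher and 0 to 0 lower (1 lower at an unadjusted p under 0.05 in each case). An ordinary linear model without moderation called 0 higher and 0 lower receptor genes (2 and 2 at an unadjusted p under 0.05) and 0 higher and 0 lower of all genes (1739 and 1896). Over all genes the counts of 1391 higher and 1289 lower became 498 and 336 in the test against 0.5, and 726 to 1227 higher and 647 to 1057 lower with 1 array left out. Quantile normalization and median centring changed nothing here, since the deposited arrays already share 1 distribution.

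No shift shared by KO and WT arrays of the same replicate number was seen (r = -0.0173 over genes between the replicate differences of KO and WT). This correlation cannot show whether arrays of the same number were prepared together. With the replicate block 4 receptor genes were higher and 1 lower, and 1309 and 1168 of all genes. The test against 0.5 moved several counts of pathway lists by over 1.5 times or to 0. It left 6 higher response genes, 1 higher gene of chaperones and trafficking, 1 higher negative regulator and 1 lower gene of adaptors and kinases. It left 0 transcription factors in either direction, and Slc15a3, the only lower gene of chaperones and trafficking, lost its call.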
